A study of Mus musculus with 18 samples.

Results

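The genes described here encode a family of receptors on T cells and natural killer (NK) cells and the nectin-type ligands that they share. The 6 genes were taken by symbol from the deposited tables, out of 48440 gene identifiers: the receptors Tigit, Cd226, Cd96 and PVRIG (the spelling of mouse Pvrig in the files) and the ligands Pvr and Nectin2. They were chosen by their measured levels across the 6 groups of these libraries, so their levels and fold changes are given as a description. Where the text says how many of them edgeR called, that count stands beside the share of all genes called, and nothing is read from it. Of the 6 genes, 5 passed the filter on low counts, and Nectin2, with 65 counts over 18 libraries, did not.

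The immune cells came from livers of wild-type (WT) C57BL/6J mice, purchased when 7 weeks old and given a week to adapt. In all of the mice, liver tumours had been raised by hydrodynamic tail vein injection of Ras and Myc oncogenes, a pressure method that delivers DNA to hepatocytes, and the labels give neither the promoters nor the time of collection. Treatment was a course of 6 intraperitoneal doses on alternate days, each with 4 mg/kg poly(I:C), which mimics viral double-stranded RNA, and 200 µg anti-PD-L1 antibody; untreated mice received neither. The protocol also lists an antibody against VEGF-A, which the treatment label of these libraries does not name. From CD45+ leukocytes, 3 fractions were sorted: CD3+CD8+ cells, CD3+CD8- cells, and CD3-CD8- cells, which lack both markers. Each fraction has 3 RNA-seq libraries without and 3 with treatment, 6 groups in all. The labels do not say whether libraries of a group came from separate mice, so the spread and the p-values measure variation between these libraries, which may be technical.

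TIGIT and CD226 (DNAM-1) are paired receptors that compete for the same ligands, PVR (CD155) and nectin-2 (CD112). CD226 delivers an activating signal, whereas TIGIT, which binds PVR more tightly, delivers an inhibitory one. CD96 also binds PVR, and PVRIG (CD112R) binds nectin-2 and is inhibitory in human lymphocytes. The receptors are carried by T cells and NK cells, and the ligands by myeloid cells, endothelium, hepatocytes and many tumour cells.

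Total counts per library ran from 1829155 to 28233682. In 3 libraries (untreated CD3+CD8+ replicates 1 and 18, treated CD3+CD8- replicate 2) most counts, 79.7% to 87.0%, lay on 5 loci taken as ribosomal, against 0.35% to 2.26% in the other 15. These loci were chosen by symbol: Rn18s-rs5, mt-Rnr1, mt-Rnr2, Lars2 and Gm15564. Untreated CD3+CD8+ replicates 1 and 18 thus rest on 606759 and 486461 other counts. Levels are CPM, a count divided by the library's total in units of 1e6 counts, after TMM scaling, which aligns the bulk of genes over all 18 libraries. The library labelled untreated CD3+CD8- replicate 6 went against its label: Cd8a, a chain of the CD8 co-receptor, stood at 641 CPM there, against 4.65 and 6.82 CPM in the other untreated CD3+CD8- libraries. The CD3-CD8- libraries also held T cell transcripts. There Cd3e, a chain of the T cell receptor complex, stood at 52.0 to 125 CPM without and 173 to 311 CPM with treatment, and Cd8a at 60.8 to 288 and 549 to 985 CPM. Ncr1, which encodes the NK cell receptor NKp46, had means of 153 ± 34.5 and 87.4 ± 53.8 CPM there (SD, n = 3 each). In such mixed samples, fewer cells of a type and less RNA per cell cannot be told apart.

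Among the CD3+CD8+ cells, Tigit and PVRIG were about 4 times as high in treated as in untreated libraries and Cd96 about 2 times. Cd226, the activating receptor, and the ligand Pvr differed by less than their standard errors. Untreated replicates 1 and 18, rich in ribosomal counts, rest on few counts of these genes. Without them 1 untreated library remained, and the log2 folds were 1.37 for Tigit, 2.03 for PVRIG and 0.66 for Cd96. The direction of Cd226 in this fraction also depended on the scaling. The plot of levels by library shows all 6 genes. In the CD3-CD8- libraries Tigit, Cd96 and PVRIG were higher with treatment together with T cell transcripts. In the CD3+CD8- fraction PVRIG alone of the 5 genes tested had every treated library above every untreated one, beside 2.8% of the 11197 genes tested.

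**Figure D1:**
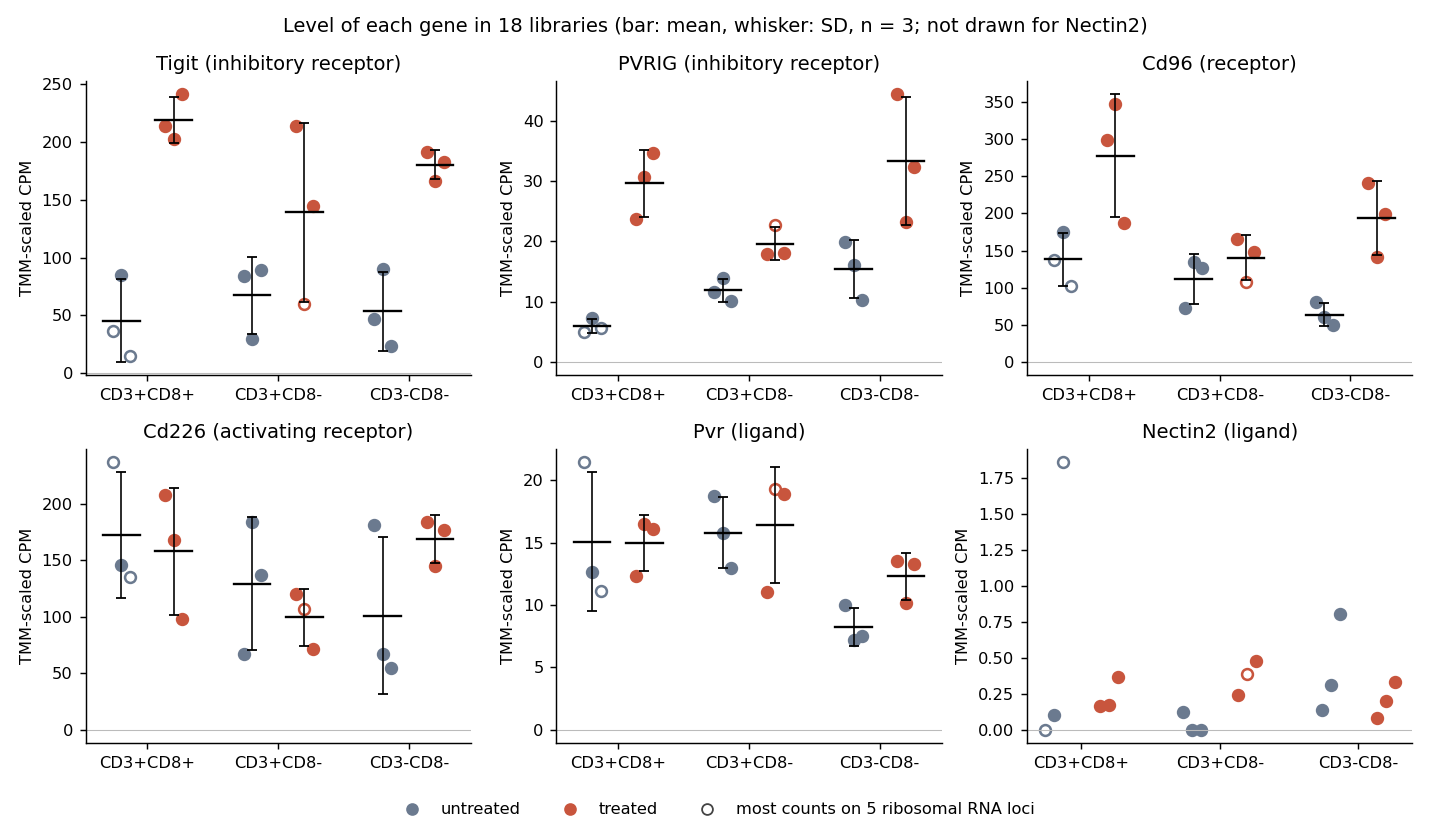
TMM-scaled CPM (vertical axis) of the 6 genes in each of the 18 libraries, by sorted fraction (horizontal axis) and treatment (colour). Bars are means and whiskers SD of 3 libraries (not drawn for Nectin2). Open circles mark the 3 libraries with most counts on loci taken as ribosomal. Tigit lay between 203 and 241 CPM in CD3+CD8+ libraries with treatment and between 14.9 and 84.9 CPM without, while the Cd226 ranges overlapped in every fraction.

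Tigit lies on chromosome 16 at 43648861 to 43664184 (minus strand, protein coding) by the positions of the deposited FPKM table. GENCODE vM21, a release on mouse build GRCm38, has the same chromosome for 100% of the 47864 identifiers compared and the same start for 90.5%; Cd96 lies on the same chromosome at 46035657 to 46120251 (minus strand), and PVRIG on chromosome 5 at 138341961 to 138343557 (plus strand). The promoter windows of Tigit, Cd96 and PVRIG are shown because these are the receptors whose treated and untreated CD3+CD8+ and CD3-CD8- libraries did not overlap. Each line gives, from RefSeq (build GRCm38.p6), the 250 bases before the start of the gene, 5′ to 3′ on the gene's strand, at chr16:43664185-43664434, chr16:46120249-46120498 and chr5:138341681-138341930; capitals mark matches to the motifs listed after them.
Tigit: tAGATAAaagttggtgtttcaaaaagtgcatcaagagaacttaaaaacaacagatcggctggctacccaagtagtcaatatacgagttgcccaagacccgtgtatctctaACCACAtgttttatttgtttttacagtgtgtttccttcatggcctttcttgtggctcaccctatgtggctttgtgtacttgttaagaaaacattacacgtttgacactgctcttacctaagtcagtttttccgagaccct
Cd96: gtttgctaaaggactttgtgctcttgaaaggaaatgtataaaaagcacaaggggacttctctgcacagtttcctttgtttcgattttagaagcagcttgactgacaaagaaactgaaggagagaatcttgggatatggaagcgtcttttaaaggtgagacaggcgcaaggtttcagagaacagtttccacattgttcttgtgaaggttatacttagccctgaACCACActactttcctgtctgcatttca
PVRIG: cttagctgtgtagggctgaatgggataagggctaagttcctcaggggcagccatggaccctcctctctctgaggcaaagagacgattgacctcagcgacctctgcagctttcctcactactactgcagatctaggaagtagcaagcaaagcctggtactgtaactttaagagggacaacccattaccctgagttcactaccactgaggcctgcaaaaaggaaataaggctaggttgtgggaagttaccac
In these windows 10 motifs were searched on both strands, each by 1 short string of letters: TGTGGT for the RUNX factors, CGGAAG for the ETS family, TGANTCA for AP-1, GGTGTGA for T-box proteins, TGGAAAA for the NFAT family, ATCAAAG for the LEF and TCF proteins, AGATAA for the GATA factors, GGGCGG for the SP and KLF proteins, and, by name, the cyclic AMP response element and the interferon response element. The Tigit and Cd96 windows each held 1 RUNX match, on the reverse strand, 140 to 135 bases before the start in Tigit and 28 to 23 bases before it in Cd96. Such a match occurs in 14.0% of the 32851 promoter windows of the same length. Tigit also held 1 GATA match, 249 to 244 bases before the start, as did 10.0% of all windows. No match to these letters was found in the PVRIG window, and a match here is a description of letters, not of a bound site.

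In CD3+CD8+ libraries, Tigit stood at 36.6, 84.9 and 14.9 CPM without treatment (replicates 1, 5 and 18; 29, 813 and 8 counts) and at 214, 203 and 241 CPM with it (replicates 11, 2 and 19). Every treated library was far above every untreated one. The means were 45.4 ± 35.9 and 219.5 ± 19.7 CPM (SD, n = 3 each), and the log2 fold of treated over untreated, fitted with edgeR, was 2.13 (SE 0.49). PVRIG stood at 5.04, 7.31 and 5.57 CPM without treatment, resting on 4, 70 and 3 counts, and at 23.7, 30.7 and 34.6 CPM with it, in the same order of replicates. Again the groups were far apart, with a log2 fold of 2.18 (SE 0.39). Cd96 was 137, 174.5 and 102 CPM, against 298, 348 and 187 CPM with treatment. The highest untreated Cd96 value came close to the lowest treated one without overlap, and the log2 fold was 0.93 (SE 0.33).

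Cd226, the activating partner, on chromosome 18 at 89197431 to 89270201 (plus strand), showed no such separation among CD3+CD8+ libraries. Its values were 237, 146 and 135.5 CPM without treatment and 208, 168 and 97.9 CPM with it, in that order of replicates. The ranges overlapped, with the highest value untreated and the lowest treated, and the log2 fold was -0.19 (SE 0.35). Of the 5 genes tested, 3 (Tigit, Cd96 and PVRIG) had every treated library above every untreated one, as had 5.79% of the 10654 genes tested in this fraction. None of the 5 was called by edgeR's quasi-likelihood test at an adjusted p below 0.05, and neither was any other gene (0.0% of genes tested; 624 had an unadjusted p below 0.05, and DESeq2 called 98). Nothing is read from these counts, because the genes were chosen on these values. Without the 2 untreated libraries rich in ribosomal counts, 1 untreated library remained and the log2 folds were 1.37 for Tigit, 2.03 for PVRIG and 0.66 for Cd96; without untreated replicate 5, that of Tigit was 3.02, and Tigit and PVRIG were then called, as they were with DESeq2, limma voom and no filter. The limma fit of the authors' FPKM values put the median gene at 1.47 in this fraction, with Tigit at 4.06, PVRIG at 3.25, Cd96 at 2.94, Cd226 at 1.66 and Pvr at 1.17 on the log2 scale; in that fit 95.6% of genes had a positive fold. The Cd226 fold was also above 0 with the GC offset (0.15), without the libraries rich in ribosomal counts (0.10) or untreated replicate 1 (0.10), and without treated replicate 19 (0.05).

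**Figure D2:**
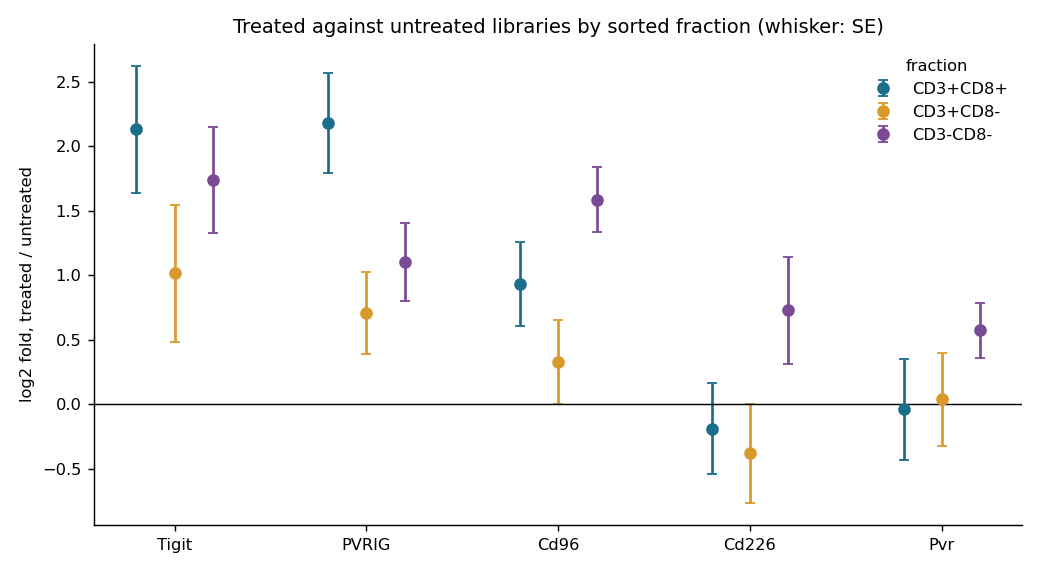
Log2 fold of treated over untreated libraries (vertical axis) for the 5 genes that passed the filter, in each sorted fraction (colour); points are edgeR estimates and whiskers standard errors from 3 against 3 libraries. Tigit and PVRIG have estimates of 2.13 and 2.18 in CD3+CD8+ cells, and Cd226 has -0.19 there.

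CD3+CD8- libraries had smaller differences. Tigit was 84.2, 29.1 and 89.1 CPM without treatment (replicates 5, 18 and 6) and 214, 59.5 and 144.5 CPM with it (replicates 11, 2 and 19). The treated library rich in ribosomal counts, replicate 2, fell within the untreated range and the other treated libraries lay above it; the log2 fold was 1.01 (SE 0.53). PVRIG was 11.6, 13.9 and 10.1 CPM, against 17.98, 22.8 and 18.1 CPM with treatment. These groups did not overlap, and the log2 fold was 0.71 (SE 0.32). Cd96 (log2 fold 0.33, SE 0.32) and Cd226 (log2 fold -0.38, SE 0.39) overlapped between groups. Beside these values, 10 neutrophil markers summed to 3434 to 15520 CPM without and 11820 to 33000 CPM with treatment, and 12 T cell markers to 2056 to 3541 and 2600 to 4082 CPM. None of either list passed the test, and their part in the receptor levels was not tested.

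PVRIG was the 1 gene of the 5 tested in CD3+CD8- cells with every treated library above every untreated one, beside 2.8% of the 11197 genes tested. None of the 5 genes was called, and edgeR called 0.0% of genes tested in this fraction (198 had an unadjusted p below 0.05, and DESeq2 called 2 genes). Leaving out the library that went against its label, untreated replicate 6, gave log2 folds of 1.27 for Tigit, 0.62 for PVRIG, 0.45 for Cd96 and -0.32 for Cd226. On the authors' FPKM values the median gene lay at -0.55 in this fraction, and the log2 folds were 0.05 for Tigit, 0.15 for PVRIG, -0.39 for Cd96, -1.02 for Cd226 and -0.47 for Pvr.

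Where CD3 and CD8 were both sorted as absent, all 4 receptors had higher means with treatment. Tigit was 46.5, 90.5 and 23.4 CPM without treatment (replicates 1, 5 and 18) and 192, 167 and 183 CPM with it (replicates 2, 11 and 19). The treated values were close to each other and all above the untreated ones, with a log2 fold of 1.74 (SE 0.41). Cd96 was 80.4, 61.1 and 50.1 CPM, against 241, 142 and 199 CPM with treatment. Again no untreated library reached a treated one, and the log2 fold was 1.59 (SE 0.25). PVRIG was 19.9, 16.1 and 10.3 CPM, against 44.4, 23.3 and 32.3 CPM with treatment (log2 fold 1.10, SE 0.30), also without overlap.

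Cd226 in the CD3-CD8- libraries was 181, 67.3 and 54.9 CPM without treatment and 184, 145 and 177 CPM with it, in that order of replicates. Untreated replicate 1 lay inside the treated range, while the other untreated libraries were far below it. The log2 fold was 0.73 (SE 0.41), 1.41 without untreated replicate 1 (then called) and 0.05 with an offset for transcript GC content. Of the 5 genes tested, 3 had every treated library above every untreated one, beside 20.1% of the 13781 genes tested. The same 3 (Tigit, Cd96 and PVRIG) were called higher, beside 10.2% of genes called higher and 25.6% called in either direction; here too nothing is read from the count.

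Those calls depended on single libraries. Tigit lost its call without untreated replicate 1 or treated replicate 2 or 19, and its log2 fold was 2.32 without untreated replicate 5. PVRIG lost its call without untreated replicate 5 or 18 or treated replicate 2 or 19, with the offset for GC content and with lane as a covariate. Cd96 lost it without untreated replicate 5. All 3 lost it on FPKM, and Tigit and PVRIG also with all 18 libraries in 1 fit. With sequencing lane as a covariate, the log2 folds of Tigit, Cd96 and PVRIG were 1.89, 1.59 and 1.10 in these cells and 2.15, 0.73 and 2.18 in CD3+CD8+ cells.

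T cell transcripts were higher with treatment in the CD3-CD8- libraries, while the summed neutrophil markers overlapped between groups. The summed level of 12 T cell markers was 762 to 1876 CPM without and 3569 to 5271 CPM with treatment, and 8 of the 12 rose in edgeR's test (5 with the GC offset) while none fell, beside 10.2% of all genes called higher. None of the 12 was at 0 in any library, and the number that rose was 0 without untreated replicate 5, 1 without treated replicate 2 and 2 without treated replicate 19. The sum of 12 NK cell markers was 1842 to 2493 and 3898 to 4825 CPM, but just 3 of the 12 had a positive fold. Their median log2 fold was -0.38 (-0.95 with the GC offset), and 2 of them rose and 2 fell. The 10 neutrophil markers summed to 136 to 881 CPM without and 593 to 20620 CPM with treatment, with a median log2 fold of 4.33, and 4 of the 10 rose (0 with the GC offset). Among them S100a8 stood at 7501 CPM in treated replicate 11, against 184 and 563 CPM in treated replicates 2 and 19. Untreated replicate 18 had 271 CPM. Of 10 B cell markers 9 fell (3 with the GC offset), beside 25.6% of all genes called in either direction. Counts of a receptor per count of Cd3e in the same library, which need no scaling between libraries, put the receptors beside the T cell transcripts. In CD3-CD8- libraries Tigit per Cd3e was 0.42 to 0.722 without and 0.616 to 0.962 with treatment, and Cd96 per Cd3e was 0.488 to 0.964 and 0.775 to 0.871. PVRIG per Cd3e was 0.128 to 0.198 and 0.134 to 0.143. All 3 ratios overlapped between groups in this fraction, and the part of T cell, B cell or neutrophil transcripts in the higher levels was not tested. Ncr1 was itself lower on average with treatment there, which by itself raises any ratio to it. The share of all genes that separate on this ratio was not computed, and nothing is read from it. Per count of Ncr1, Tigit was at 0.163 to 0.727 and 1.12 to 3.95, and Cd96 at 0.349 to 0.491 and 0.953 to 4.97. PVRIG was at 0.0717 to 0.129 and 0.156 to 0.914, Cd226 at 0.382 to 0.947 and 0.975 to 3.79, and Pvr at 0.052 to 0.0577 and 0.0681 to 0.279.

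The same ratios did not overlap in the CD3+CD8+ libraries for Tigit and PVRIG. Tigit per Cd3e was 0.123 to 0.32 without and 0.547 to 0.869 with treatment, and PVRIG per Cd3e was 0.0209 to 0.0462 and 0.0826 to 0.0962. Cd96 per Cd3e overlapped, at 0.571 to 0.846 and 0.483 to 1.21. How many of all genes separate per count of Cd3e was not computed, and nothing is read from these separations. Untreated replicates 1 and 18 rest on 29 and 8 Tigit, 4 and 3 PVRIG, and 191 and 65 Cd3e counts. Untreated replicate 18 also held the B cell marker Ms4a1 at 345 CPM and Ncr1 at 102 CPM. Across the CD3+CD8+ libraries the 12 T cell markers summed to 1487 to 4020 CPM without and 4121 to 4974 CPM with treatment, and none of them passed the test. The sort marker Cd8a was at 282 to 970 CPM without and 1089 to 1382 CPM with treatment. The 12 NK cell markers, some of which cytotoxic T cells also express, summed to 861 to 1680 and 2679 to 4261 CPM, while Ncr1 was at 1.04 to 102 and 0.346 to 2.84 CPM. The sum of 10 B cell markers was 42.1 to 1446 CPM without treatment and 35.9 to 43.7 CPM with it; the part of such shifts in the receptor levels was not tested.

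**Figure D3:**
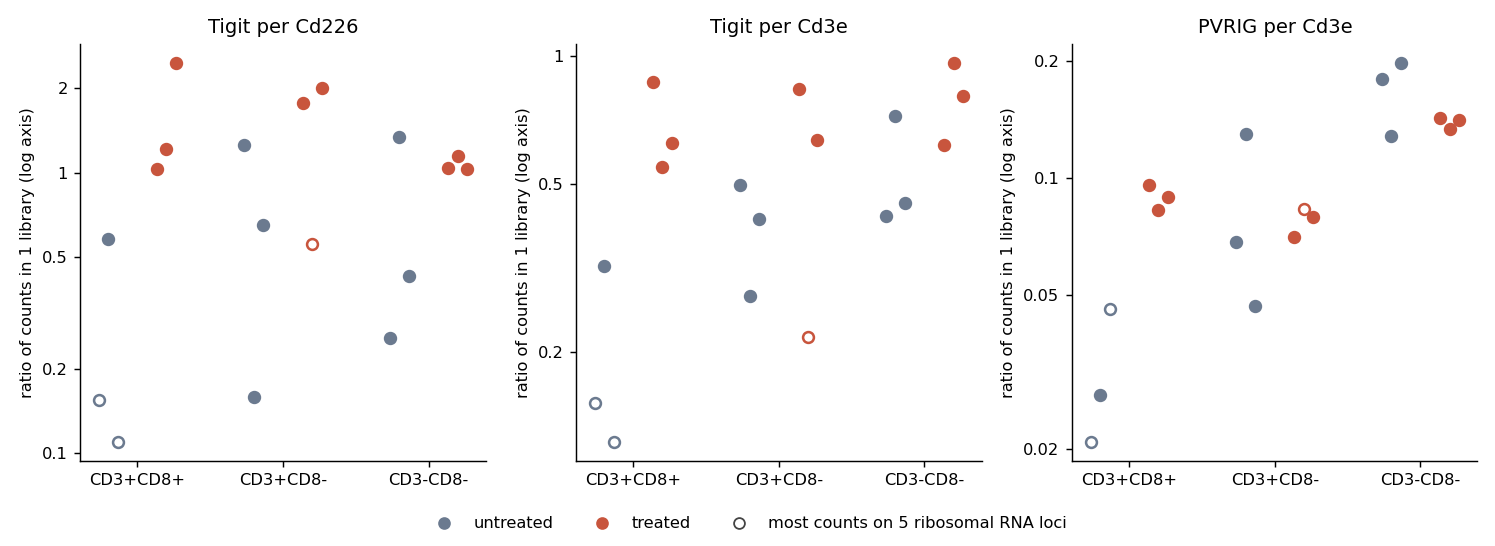
Ratio of counts within each library (vertical axes, logarithmic) for Tigit per Cd226, Tigit per Cd3e and PVRIG per Cd3e, by sorted fraction (horizontal axis) and treatment (colour). Each point is 1 library, and open circles mark the 3 libraries with most counts on loci taken as ribosomal. In CD3+CD8+ cells treated and untreated libraries separate in all 3 panels, and in CD3-CD8- cells they overlap in all 3. How many of all genes separate on such ratios was not computed.

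The balance of the paired receptors can be followed between libraries as Tigit counts per Cd226 count, a ratio in which the gene lengths are constant. Among CD3+CD8+ libraries it was 0.154, 0.582 and 0.11 without treatment (replicates 1, 5 and 18) and 1.03, 1.21 and 2.47 with it (replicates 11, 2 and 19). The ratio was higher in each treated library than in any untreated one. Among CD3+CD8- libraries it was 0.159 to 1.26 without and 0.556 to 2.01 with treatment, with overlap. Among CD3-CD8- libraries it was 0.257 to 1.34 and 1.03 to 1.15, so the treated libraries were alike and the untreated ones spread around them. PVRIG per Cd226 also separated the CD3+CD8+ groups, at 0.0213 to 0.0501 and 0.114 to 0.354, as did Cd96 per Cd226, at 0.58 to 1.2 and 1.43 to 2.07. How many of all genes separate on a ratio to Cd226 was not computed, and nothing is read from these separations. Untreated CD3+CD8+ replicate 18 held 8 Tigit, 3 PVRIG, 55 Cd96 and 73 Cd226 counts.

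Ranked by mean level over the 6 groups, Tigit was highest in treated CD3+CD8+ libraries (219.5 CPM), whose range lay above that of treated CD3-CD8- libraries (180.6 CPM). Treated CD3+CD8- replicate 11, at 214 CPM, lay inside the treated CD3+CD8+ range of 203 to 241 CPM. The next groups down, treated CD3+CD8- (139.3 CPM) and the untreated CD3+CD8- (67.5 CPM), CD3-CD8- (53.5 CPM) and CD3+CD8+ (45.4 CPM) libraries, each overlapped their neighbour. For PVRIG the order was treated CD3-CD8- (33.3 CPM), treated CD3+CD8+ (29.7 CPM), treated CD3+CD8- (19.6 CPM), then untreated CD3-CD8- (15.4 CPM), CD3+CD8- (11.9 CPM) and CD3+CD8+ (5.97 CPM). Of these neighbours, treated CD3+CD8+ from treated CD3+CD8-, and the 2 lowest from each other, did not overlap. Cd96 ran from 277.5 CPM in treated CD3+CD8+ to 63.9 CPM in untreated CD3-CD8- libraries, and Cd226 from 172.8 CPM in untreated CD3+CD8+ to 99.7 CPM in treated CD3+CD8- libraries, with every neighbouring pair overlapping for both genes.

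Averaged over treated and untreated groups, Tigit differed little between fractions, with log2 folds between -0.02 (SE 0.40) and 0.09 (SE 0.40). Cd96 was higher in CD3+CD8+ than in CD3-CD8- cells (log2 fold 0.82, SE 0.23) and PVRIG lower (-0.72, SE 0.22). These were the 2 of 5 genes called in that contrast, in which 12.8% of 13181 genes were called. Against CD3+CD8- cells, CD3+CD8+ cells gave log2 folds of 0.65 for Cd96 (SE 0.23), 0.54 for Cd226 (SE 0.31) and -0.14 for PVRIG (SE 0.22). No gene of the 5 was called there, beside 7.69% of genes. Pvr was the 1 gene called between CD3+CD8- and CD3-CD8- cells, beside 8.13% of genes. With the replicate number as a block, Pvr was also called between CD3+CD8+ and CD3-CD8- cells (log2 fold 0.56), and the genes called between CD3+CD8- and CD3-CD8- cells numbered 2233 in place of 1071. Nothing is read from these calls either. With each of the 18 libraries left out in turn, the call of Cd96 held in 10 fits, that of PVRIG in 13 and that of Pvr in 3; the latter calls also ended without the 3 libraries rich in ribosomal counts, at log2 folds of -0.66 and 0.58.

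The ligand genes had low levels in all fractions. Pvr, on chromosome 7 at 19903578 to 19921160 (minus strand), had means of 15.1 ± 5.56 and 15.0 ± 2.27 CPM without and with treatment in CD3+CD8+ libraries (SD, n = 3 each), with a log2 fold of -0.04 (SE 0.39). In CD3+CD8- libraries it averaged 15.8 ± 2.87 and 16.4 ± 4.66 CPM (SD, n = 3 each; log2 fold 0.04, SE 0.36). Pvr was lowest in untreated CD3-CD8- libraries, at 9.96, 7.18 and 7.48 CPM (replicates 1, 5 and 18), against 13.5, 10.1 and 13.3 CPM with treatment (replicates 2, 11 and 19). The lowest treated value lay just above the highest untreated one on this scaling over 18 libraries, and the groups overlapped when only the 6 libraries of the fraction were scaled together. The log2 fold was 0.57 (SE 0.22). Its fold between CD3+CD8- and CD3-CD8- cells was 0.68 (SE 0.20) on the log2 scale. The antisense and pseudogene models that overlap Pvr on the opposite strand, Gm16251 and Gm16184, held 6 and 41 counts over all libraries, beside 2805 for Pvr.

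Nectin2, on chromosome 7 at 19716644 to 19750483 (minus strand), was near the limit of detection. It had 0 to 13 counts per library, and more than 3 counts in 5 of the 18: treated replicate 19 of each fraction (10, 9 and 11 counts) and untreated CD3-CD8- replicates 5 and 18 (13 and 10 counts). The 3 libraries without a count were untreated CD3+CD8+ replicate 1 and untreated CD3+CD8- replicates 18 and 6, where 3 counts, the limit that a count of 0 allows, correspond to 3.78, 0.787 and 1.22 CPM. This limit covers counting error only. The highest Nectin2 level, 1.86 CPM in untreated CD3+CD8+ replicate 18, was a single count in a library where 3 counts correspond to 5.57 CPM. No fold is given.

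Levels were also divided by kilobases of annotated exon (GENCODE vM21, all transcripts of a gene joined), which allows only a rough comparison between genes. The Cd226 locus of the deposited table is shorter than that of GENCODE (89176967 to 89272229), so the length used may not be that counted. On this scale Tigit led the receptors in treated CD3+CD8+ libraries, at a mean of 239 CPM per kb. Cd96 was at 127, Cd226 at 32.3 and PVRIG at 27.5 CPM per kb. In untreated CD3+CD8+ libraries the means were 63.2 CPM per kb for Cd96, 49.4 for Tigit, 35.3 for Cd226 and 5.53 for PVRIG. The higher mean of Cd96 there rested on the libraries rich in ribosomal counts, replicates 1 and 18. In replicate 5 Tigit stood above Cd96, at 92.4 against 79.9 CPM per kb. Tigit made up 16.9% to 44.2% of the summed receptor level per kb in untreated and 49.9% to 65.6% in treated CD3+CD8+ libraries, without overlap, and Cd226 14.3% to 31.1% and 5.0% to 9.82%. Nothing is read from this separation, because the genes were chosen by their levels. Pvr averaged 1.34 to 2.68 CPM per kb over the 6 groups. Summed per kb, the 4 receptors were 40.7 to 123 times the 2 ligands in untreated libraries and 48.1 to 210 times in treated ones. RNA of ligand-bearing liver cells was also present in these sorts: 11 hepatocyte markers summed to 129 to 3107 CPM and 7 endothelial markers to 53.1 to 190 CPM over the 18 libraries, with Alb, which encodes albumin, at 80.9 to 2382 CPM. Their part in the ligand levels was not tested.

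**Figure D4:**
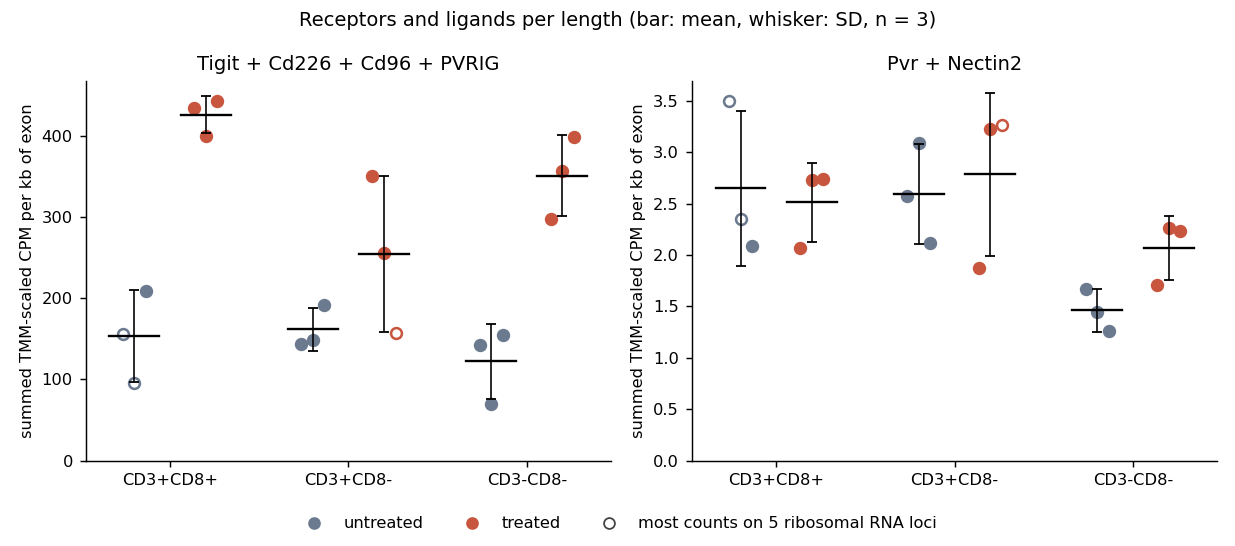
Summed TMM-scaled CPM per kb of exon (vertical axes, from 0) of the 4 receptors (left) and the 2 ligands (right) in each library, by sorted fraction and treatment (colour); bars are means and whiskers SD of 3 libraries. Receptors reach 400 to 443 CPM per kb in treated CD3+CD8+ libraries and 95.8 to 209 in untreated ones, while the ligands stay at or below 3.5 CPM per kb in all 18.

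Nectin1 and Nectin3, the nectins fixed for naming beside Nectin2, were also at low levels, with group means of at most 2.34 and 0.701 CPM. Crtam, a receptor of activated T cells and NK cells that binds a nectin-like molecule, had means of 49.6 ± 24.2 and 48.0 ± 13.7 CPM without and with treatment in CD3+CD8+ libraries (SD, n = 3 each). Its log2 fold there was -0.17 (SE 0.38; edgeR adjusted p = 0.999). Of the 9 genes in this list, 3 were tested in each T cell fraction and none passed. In CD3-CD8- cells 6 were tested and 2 fell: Nectin1, a nectin that binds mouse CD96, by 1.86 on the log2 scale (SE 0.46; edgeR adjusted p = 0.0267), and Afdn (Mllt4 in the files), which links nectins to actin, by 0.90 (SE 0.26; edgeR adjusted p = 0.0423). Nectin1 there had means of 2.34 ± 0.431 and 0.783 ± 0.528 CPM without and with treatment (SD, n = 3 each). Both calls ended without untreated replicate 5, treated replicate 2 or treated replicate 19, with the GC offset and with lane as a covariate. The median log2 fold of the 6 genes tested was -1.14, against -0.06 for all genes tested, of which 25.6% were called in either direction.

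Of 20 genes that act below these receptors, all were tested in each fraction and none passed in CD3+CD8+ or CD3+CD8- cells. Their median log2 folds were 0.21 and -0.004 there, against -0.03 and -0.02 for all genes. In CD3-CD8- cells 3 rose and 5 fell, beside 10.2% of all genes called higher and 25.6% called in either direction, with a median of 0.02 against -0.06 for all genes. Fyn, a kinase that phosphorylates the tail of CD226, rose by 1.27 (SE 0.29; edgeR adjusted p = 0.0199), Lcp2, the adaptor SLP-76, by 0.82 (SE 0.20; edgeR adjusted p = 0.0252), and Cblb, a ubiquitin ligase that restrains T cell signalling, by 0.75 (SE 0.15; edgeR adjusted p = 0.0145), all on the log2 scale. Of the genes that fell, 2 encode phosphatases that inhibitory receptor tails recruit: Ptpn6 (SHP-1) fell by 1.18 (SE 0.16; edgeR adjusted p = 0.00861) and Inpp5d (SHIP-1, which TIGIT engages through Grb2) by 0.58 (SE 0.15; edgeR adjusted p = 0.0274). Grb2 itself fell by 0.73, Plcg2 by 1.27 and Akt1 by 0.72 (edgeR adjusted p = 0.0144, 0.00905 and 0.0107). With the GC offset, Ptpn6 alone among the 20 was called, and its log2 fold was -0.63. Without untreated replicate 5, 1 of the 20 was called (lower), and without treated replicate 19 or 2 none rose while 3 or 4 fell. Beside them, the 10 B cell markers summed to 2420 to 3338 CPM without and 1436 to 1953 CPM with treatment in CD3-CD8- libraries, and their part in these changes was not tested.

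Pdcd1 and Havcr2, which encode the inhibitory receptors PD-1 and TIM-3, were read beside Tigit. In CD3+CD8+ cells their log2 folds were 1.77 (SE 0.59) and 2.03 (SE 0.34), and neither passed (edgeR adjusted p = 0.674 and 0.273). In CD3-CD8- cells Havcr2 rose by 1.89 (SE 0.15; edgeR adjusted p = 0.0072), whereas Pdcd1, with a log2 fold of 2.22 (SE 0.72), did not pass (edgeR adjusted p = 0.0563). In CD3+CD8- cells the log2 folds were 1.06 (SE 0.72) for Pdcd1 and 0.28 (SE 0.41) for Havcr2, and neither passed (edgeR adjusted p = 1.0 for both). Of the 11 inhibitory receptors listed outside the axis, none passed in the T cell fractions, and 5 rose and 1 fell in CD3-CD8- cells, beside the same 25.6% of all genes called. With the GC offset 3 rose; 3 rose without treated replicate 11 or untreated replicate 5, and 1 without treated replicate 2 or 19.

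Across the 18 libraries the receptors differed in how they varied together. Pearson's r of log2 CPM was 0.742 between Tigit and PVRIG, 0.659 between Tigit and Cd96, and 0.639 between Cd226 and Cd96, but 0.092 between Tigit and Cd226 and 0.081 between Cd226 and PVRIG. Pvr had r between 0.021 and 0.415 with the receptors. The genes most like Tigit by this measure were Lag3 (r = 0.95), Pdcd1 (r = 0.942) and Tox2 (r = 0.935). Those most like Cd226 were Tgtp2, Gpr171 and Nck1 (r = 0.914 to 0.918), and those most like Cd96 were Ifit1bl1, Rad21 and Trim37 (r = 0.918 to 0.945). PVRIG was most like Nedd9, Atmin and Chn2 (r = 0.89 to 0.914), and Pvr most like Setd7, Fyb and Ogt (r = 0.853 to 0.903). These values are descriptions over 18 libraries that share treatment, sort and scaling. Over the 15 libraries left without those rich in ribosomal counts, r was 0.658 for Tigit with PVRIG, 0.731 for Tigit with Cd96 and 0.696 for Cd226 with Cd96, and the low values were higher: 0.274 for Tigit with Cd226, 0.399 for Cd226 with PVRIG and 0.196 for PVRIG with Pvr. In the same libraries, r of Tigit with Lag3, Pdcd1 and Tox2 was 0.931, 0.951 and 0.949.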

How the data were processed

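The authors deposited a table of counts per gene and a table of FPKM values with symbols and loci; of 40 library columns, 18 were used and 22 were not. Per the submitters' processing notes, the tools included HTSeq 0.13.5, Cufflinks 2.2.1, Trim Galore 0.6.7 and, as version 3.20, DESeq2. Aligner, genome build and strand setting: not given in the sources used here. Treated and untreated libraries were compared within each fraction (6 libraries) and fractions in a fit of all 18, with edgeR 4.0.16 (R 4.3.3): filterByExpr, TMM, quasi-likelihood F-test (two-sided), Benjamini-Hochberg over all genes tested, called below 0.05. Replicate numbers recur across fractions: deviations from group means of same-numbered libraries correlated at 0.151 to 0.451 between CD3+CD8+ and CD3-CD8-, 0.168 to 0.556 between CD3+CD8- and CD3-CD8-, and -0.041 to 0.495 between CD3+CD8+ and CD3+CD8- libraries. Libraries of different number ran from -0.392 to 0.25, -0.542 to 0.247 and -0.535 to 0.446, in the same order, and most of their values were negative. Same-numbered libraries were thus mostly more alike. The ranges overlap and the labels do not name the animals, so whether the numbers pair libraries is not settled. The fraction contrasts reported take the 18 libraries as unpaired, and the replicate number as a block was an alternative. A floor of 3 counts was used for zero counts. Alternatives were DESeq2 1.42.0 (in full or its size factors), limma 3.58.1 (voom, or log2(FPKM + 1)), other filters, removal of ribosomal loci, a GC offset, lane as a covariate, 1 fit of all libraries, and libraries left out. The pipeline was tested on simulated counts. The genes and gene lists were chosen with earlier results of these data known. Named beside the 6 genes were list members that passed (at most 8 per list and comparison), Crtam, Nectin1, Nectin3, Inpp5d, Ptpn6, Pdcd1, Havcr2, sort markers, and the 3 genes of highest correlation with each. Other cell type markers were named where their level stands beside a result. The sequence of Cd226 was not used here.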

Additional observations from a re-analysis of the deposited data

How the results depend on the processing

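The number of genes called, from which each percentage above comes, moved with the method far more than the fold changes of the 5 genes tested. For treated against untreated CD3+CD8+ cells (0 called) it was 380 with no filter, 98 with DESeq2, 197 with limma voom, 18 on FPKM, 15 with all 18 libraries in 1 fit, and 0 to 180 with 1 library left out (180 without untreated replicate 5). For CD3+CD8- cells (0 called) it was 195 with no filter, 2 with DESeq2, 31 on FPKM and 0 to 0 with 1 library left out. For CD3-CD8- cells (3522 called) it was 5479 with DESeq2, 6399 with limma voom, 529 with the GC offset, 249 on FPKM, 76 with all 18 libraries in 1 fit, and 239 to 3183 with 1 library left out (239 without untreated replicate 5, 910 and 1185 without treated replicates 2 and 19). Between CD3+CD8+ and CD3-CD8- cells (1692) limma voom gave 5139; between CD3+CD8- and CD3-CD8- cells (1071) no filter gave 1963 and limma voom 2567, and leaving out 1 library gave 614 to 1565 (624 without untreated CD3-CD8- replicate 5, 614 without treated CD3-CD8- replicate 19); between the T cell fractions (1014) limma voom gave 1613. The cause was not tested. With the replicate number as a block, the fraction contrasts called 2295, 2233 and 1417 genes; beside the Pvr call given with the fractions, the block changed no call of the 5 genes. No paired analysis was possible for treatment because treated and untreated libraries share no number. Of 72 group mean levels rescaled by library totals, with or without the ribosomal loci, 43 moved by more than 1 SD between replicates and 29 by less. Mean Cd226 in CD3+CD8+ libraries was 93.1 untreated and 216.2 treated by library totals alone, and 223.4 and 218.0 without the ribosomal loci, so its direction depended on whether those loci entered the total; Tigit was 43.6 and 303.4, or 62.2 and 306.4 CPM. Of 655 fold changes under alternatives, 642 moved by less than 1 SD between replicates and 13 by more, 10 of them on FPKM; no called fold changed sign, whereas the uncalled Cd226 fold in CD3+CD8+ cells (-0.19) became 0.10 once the ribosomal-rich libraries were left out. Higher against lower calls in CD3-CD8- cells (1407 and 2115) were 258 and 271 with the GC offset, 2678 and 2801 with DESeq2, 54 and 195 on FPKM, and 61 and 15 with all 18 libraries in 1 fit. At 0 to 13 counts per library, differences in Nectin2 could not be resolved.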
